A study of Mus musculus with 16 samples.

Results

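Egr1, Egr2, Egr3, Nr4a1, Ier2 and Ier5 are 6 immediate early genes, chosen by symbol from a table that holds 13832 genes. They were followed in RAW264.7 cells, an established mouse macrophage-like line that is a single line and not primary tissue, during exposure to 100 ng/ml lipopolysaccharide (LPS, from the outer membrane of Gram-negative bacteria; here from E. coli O111:B4). The groups were untreated cells and cells exposed for 15, 30, 45, 60, 75 and 90 min and for 16 h, with no genetic change named for any of them. At each of these 8 time points 2 libraries were made from 1 lysate: cytoplasmic input RNA, fragmented by alkali, and ribosome footprints, the fragments that a ribosome protects from RNase I. Each of the 16 combinations of material and time was a single library, so a ratio between libraries has a counting error but no replicate check. Untreated cells were sampled at 0 min only, so time in culture and handling cannot be told apart from LPS.

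Immediate early genes are transcribed soon after a signal reaches the cell, from factors already present, without a need for new protein. In macrophages LPS acts through the receptor TLR4 and activates NF-κB and the MAP kinases; ERK phosphorylates Elk1, Elk3 and Elk4, which sit beside serum response factor (SRF) on CArG boxes in many of these promoters. Their mRNAs are often short-lived, and AU-rich elements built on the pentamer ATTTA in the 3′ UTR are a known cause of rapid decay. Egr1, Egr2 and Egr3 are zinc-finger transcription factors of 1 family that bind GC-rich sites and are held in check by the corepressors Nab1 and Nab2. Nr4a1 (Nur77) is an orphan nuclear receptor that restrains inflammatory gene expression in macrophages. Ier2 and Ier5 belong to a small family of immediate early response proteins, and Ier5 is known to recruit the phosphatase PP2A to its targets, the heat shock factor HSF1 among them.

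The start codon and its surroundings are shown for 5 of them because footprints are taken from the reading frame that opens here. The 12 bases before the start codon and the 3 after it are given, with the start codon in capitals.
Egr2: tgcgaggagcaaATGatg
Egr3: ctcgggagtgctATGacc
Nr4a1: cccagagtggagATGccc
Ier2: cgtcgaacaagcATGgaa
Ier5: agcgaaggcaggATGgag
These 5 sequences were read from GENCODE M21 transcripts. In the last 500 bases of the 3′ UTR the pentamer ATTTA, read on the mRNA strand, occurred 3 times in Egr3 and in Nr4a1, 2 times in Egr1 and in Egr2, 1 time in Ier5 and 0 times in Ier2. Among 6221 tested genes with a 3′ UTR of at least that length the median was 1, and 11.6% had 3 or more. The match is a description of letters and says nothing of binding. Reads of about 29 bases could be shared between relatives in a small part only: 17 of the 1382 coding 29-base words of Egr2 (1.23%) and 26 of the 1133 of Egr3 (2.29%) also occur in each other or in Egr4, and 6 of the 896 of Ier5 (0.67%) occur in Ier5l. Nr4a1, Ier2 and Egr1 shared 0 such words with other genes.

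RefSeq's promoter table (GRCm38.p6) held 3 of the 6 genes, Egr2, Nr4a1 and Ier5. The windows of Egr2 and Nr4a1 are shown because both genes went from few footprints to many, as given further on. Of their matched motifs, only TGACG was found in both windows. Capitals mark matches, on either strand, to a CArG box, the cyclic AMP response element core TGACG, the EGR site GCGNGGGCG, the ETS core CCGGAA, the TATA box TATAAA or the NR4A site AAGGTCA. Each window is the 250 bases before a start site. For Egr2 it is chr10:67537619-67537868 on the plus strand, before the start of the 2-exon transcript used here and inside an intron of longer ones. For Nr4a1 it is chr15:101266596-101266845 on the plus strand, also inside an intron of a longer transcript.
Egr2: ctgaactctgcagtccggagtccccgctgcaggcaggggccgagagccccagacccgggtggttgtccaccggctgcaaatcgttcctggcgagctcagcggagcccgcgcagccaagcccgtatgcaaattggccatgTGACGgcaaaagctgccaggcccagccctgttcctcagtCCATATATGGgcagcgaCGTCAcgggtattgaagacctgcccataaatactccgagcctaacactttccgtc
Nr4a1: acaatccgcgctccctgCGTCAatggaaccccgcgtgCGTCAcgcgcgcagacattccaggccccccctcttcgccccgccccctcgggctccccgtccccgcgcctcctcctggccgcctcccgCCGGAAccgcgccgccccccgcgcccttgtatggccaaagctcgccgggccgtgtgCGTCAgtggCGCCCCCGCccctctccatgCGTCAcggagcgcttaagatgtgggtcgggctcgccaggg
The Egr2 window held 1 CArG box, beginning 72 bases before the start site, and 2 TGACG matches at 111 and 55 bases before it. The Nr4a1 window held 4 TGACG matches, at 233, 213, 69 and 40 bases before the start, 1 EGR site at 60 and 1 ETS core at 125. The Ier5 window (chr1:155099637-155099886, minus strand) held 0 matches to the 6 motifs. Over the promoters of 27025 genes, 1.4% held a CArG box, 17.9% a TGACG match, 4.65% the EGR site and 12.2% the ETS core. Of the same promoters, 4.02% held 2 or more TGACG matches and 0.152% held 4 or more. These are matches of letters, not sites shown to be bound.

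The genes are compact. In GENCODE M21, which uses the mm10 (GRCm38) build of the files, Egr1 (ENSMUSG00000038418.7) lies at chr18:34859823-34864984 on the plus strand. Egr2 (ENSMUSG00000037868.15) lies at chr10:67535475-67542188 and Egr3 (ENSMUSG00000033730.4) at chr14:70077203-70082614, both on the plus strand. Nr4a1 (ENSMUSG00000023034.7) lies at chr15:101254269-101274795 on the plus strand. Ier2 (ENSMUSG00000053560.4) lies at chr8:84661331-84662852 and Ier5 (ENSMUSG00000056708.5) at chr1:155096361-155099636, both on the minus strand. Ier2 and Ier5 have 1 exon and no intron, the 3 Egr genes have 2 exons and Nr4a1 has 8, counted in the transcript with the longest coding sequence. The median over the 9127 tested genes with such a transcript was 10 exons, and 5.36% had 1 or 2. No other annotated gene overlapped any of the 6.

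Each library held 6702930 to 6702932 counts, and every library of a material was scaled by TMM, a factor that sets the typical gene to no change. All 10 macrophage markers checked were present (summed counts of 22816 to 45609 per library), while summed counts stayed at or below 5 for fibroblast, 1 for epithelial and 8 for lymphocyte markers and between 20 and 45 for osteoclast markers. Levels are in CPM (read counts set to a common scaled library size), and intervals in parentheses after a ratio are 95% counting intervals. Tests were edgeR's quasi-likelihood F-test on the counts of 9529 genes that had at least 10 counts in at least 4 libraries of each material, with p adjusted over all 9529 by Benjamini-Hochberg and a threshold of 0.05. The error in these tests is the scatter of the 8 single libraries about a smooth curve. All 6 genes passed the filter, but Egr1, Egr2 and Egr3 reached 10 counts only in libraries after LPS, and so did Nr4a1 in the footprints. All ratios to untreated share 1 untreated library per material.

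The 3 EGR factors were near absent in untreated cells and present from 30 min. In these bulk libraries more responding cells and more RNA per cell cannot be told apart. Egr2 had the most reads of the 3. In the input it had 7 counts in untreated cells and 7, 188, 417, 309, 275, 356 and 30 counts at 15, 30, 45, 60, 75 and 90 min and 16 h. In the footprints it had 6 counts in untreated cells and 13, 122, 549, 386, 389, 537 and 33 at the same times. The libraries from 30 to 90 min were all far above the untreated and 15 min ones, and those at 16 h lay between. Egr2 input stood at 62-fold of untreated (29.8 to 155) at 45 min and at 55.3-fold (26.6 to 139) at 90 min. Egr2 footprints stood at 101-fold (46.1 to 276) at 45 min and at 108-fold (49.4 to 296) at 90 min. The course had a dip between these: input at 60 min was 0.752-fold of that at 45 min (0.647 to 0.874), and from 75 to 90 min it was higher again by 1.31-fold (1.12 to 1.54). Footprints showed the same dip, with 0.728-fold (0.638 to 0.831) from 45 to 60 min and 1.44-fold (1.26 to 1.65) from 75 to 90 min. The test of a curve over 0 to 90 min did not pass for Egr2, with a fitted log2 change of 5.75 ± 1.4 (SE) in the input (edgeR, adjusted p = 0.077) and 6.88 ± 1.3 in the footprints (adjusted p = 0.053). DESeq2 called both (6.46, adjusted p = 0.00093, and 7.34, adjusted p = 7.7e-08), as did edgeR without its robust option (adjusted p = 0.0013 and 0.00025). The footprint change was also called with libraries scaled by total counts (adjusted p = 0.04) and without the 45 min library (adjusted p = 0.0048).

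Egr3, a close relative of Egr2, had fewer reads, with its highest footprint count at 60 min. In the input it had 2 counts in untreated cells and 5, 29, 56, 67, 61, 67 and 3 at the later times. In the footprints it had 0 counts in untreated cells and 2, 8, 65, 127, 107, 63 and 1. Input counts were level from 60 to 90 min, while footprints were highest at 60 min, with 75 min within counting error of it. Egr3 input stood at 36.4-fold of untreated (9.7 to 307) at 90 min, and footprints at 60 min were at least 48.4-fold higher than a floor of 3 counts in the untreated library. Footprints at 90 min were 0.616-fold of those at 75 min (0.444 to 0.848), whereas input over that step was 1.12-fold (0.777 to 1.6). Egr3 rose over 0 to 90 min in the input, by a fitted log2 of 5.12 ± 0.48 (edgeR, adjusted p = 1.2e-05), and in the footprints (adjusted p = 1.8e-08). Its fitted footprint size of 10.89 rests on 0 untreated counts and is no measure of fold; the footprint call was lost with a linear time term (adjusted p = 0.12) and with the square root of minutes (adjusted p = 0.07). Egr3 was also higher at 75 and 90 min than at 15 and 30 min, by a log2 of 2.00 ± 0.51 in the input (adjusted p = 0.034) and 4.20 ± 0.67 in the footprints (adjusted p = 0.012). The input call of that contrast was lost without the 45, 60, 75 or 90 min library (adjusted p = 0.072, 0.071, 0.15 and 0.23), and the footprint call without the 15 min library (adjusted p = 0.076).

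Egr1, the founding member of the family, was the least read of the 6. In the input it had 0 counts in untreated cells and 1, 12, 15, 14, 10, 7 and 0 at the later times. In the footprints it had 0 counts in untreated cells and 3, 11, 45, 32, 17, 12 and 1. Both materials were highest at 45 min, with 60 min within counting error of it, and back at 0 or 1 count at 16 h. Against a floor of 3 untreated counts, Egr1 at 45 min was at least 5.2-fold higher in the input and at least 16.6-fold higher in the footprints. Egr1 rose over 0 to 90 min in the input (edgeR, adjusted p = 0.0044) and in the footprints (adjusted p = 0.00011), with fitted sizes that depend on the 0 counts. Leaving out the untreated library ended the input call (adjusted p = 0.054), and a linear time term ended both calls (adjusted p = 0.29 and 0.46), as did the square root of minutes (adjusted p = 0.13 and 0.25).

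Nr4a1 was highest at 45 min, and at 60 min it stood at 88.6% of its maximum in the input and 78.7% in the footprints. In the input it had 32 counts in untreated cells and 28, 487, 1110, 969, 469, 191 and 102 at the later times. In the footprints it had 1 count in untreated cells and 5, 280, 1597, 1213, 464, 135 and 81. At 15 min neither material stood apart from untreated, and from 30 min every library was above it. Nr4a1 input at 45 min was 36.1-fold of untreated (25.4 to 53), and footprints were 1760-fold (316 to 69700), a ratio that rests on 1 untreated count. The descent was as clear as the ascent: input at 45 min was 5.56-fold of that at 90 min (4.76 to 6.52), and footprints were 10.8-fold (9.04 to 13). Nr4a1 rose over 0 to 90 min in the input, with a fitted log2 size of 6.53 ± 1 (edgeR, adjusted p = 0.026), and in the footprints (adjusted p = 0.012). The input call ended on leaving out the untreated, 30, 45, 60, 75 or 90 min library (adjusted p = 0.066, 0.056, 0.08, 0.079, 0.071 and 0.082) and with a cubic curve (adjusted p = 0.091), and the footprint call without the untreated library (adjusted p = 0.075). A linear time term (adjusted p = 0.52 and 0.56) or the square root of minutes (adjusted p = 0.31 and 0.36) ended both.

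**Figure D1:**
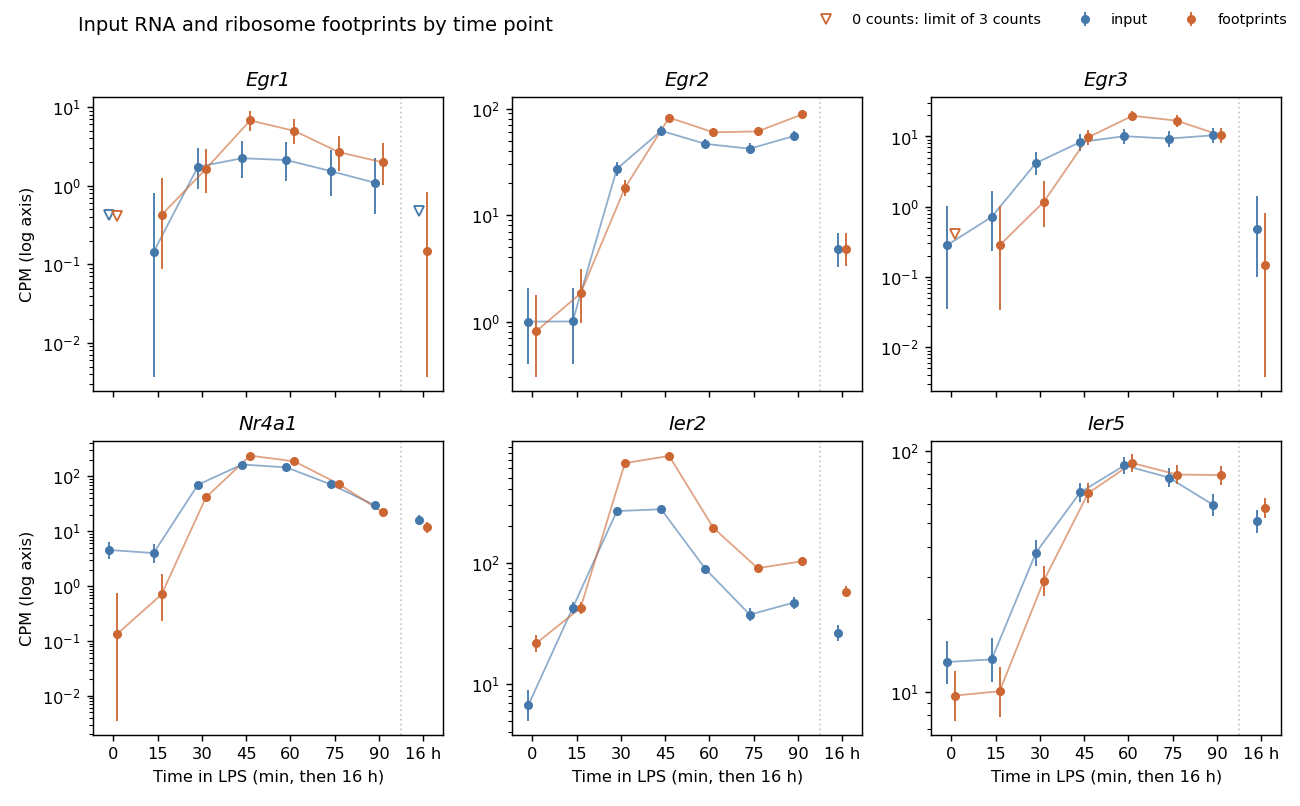
Level of each gene in CPM (log axis) against time in LPS, for input RNA and ribosome footprints, 1 library per point, with 95% counting intervals; open triangles are libraries with 0 counts, drawn at the value of 3 counts, and lines join time points up to 90 min. Ier2 footprints are at 658 and 754 CPM at 30 and 45 min, and Nr4a1 footprints begin at 0.136 CPM against 4.57 CPM in the input.

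Ier2 was the earliest of the 6 to stand above untreated and the earliest to come down from its maximum. In the input it had 47 counts in untreated cells and 295, 1836, 1848, 587, 244, 302 and 165 at the later times. In the footprints it had 160 counts in untreated cells and 300, 4462, 5035, 1242, 573, 624 and 392. Ier2 was the only one of the 6 whose input at 15 min lay beyond counting error of untreated, at 6.3-fold (4.62 to 8.76). Input at 30 and at 45 min was level, at 39.5-fold (29.6 to 54) and 40.9-fold (30.6 to 55.9) of untreated. Footprints stood at 30.3-fold (25.9 to 35.7) and 34.7-fold (29.7 to 40.9). From 45 to 60 min Ier2 input was 0.322-fold (0.293 to 0.354) and footprints 0.255-fold (0.24 to 0.272). The test over 0 to 90 min did not pass for Ier2, with a fitted log2 of 4.12 ± 1.5 in the input (edgeR, adjusted p = 0.17) and 4.62 ± 1.8 in the footprints (adjusted p = 0.22). DESeq2 called both (4.66, adjusted p = 0.017, and 4.65, adjusted p = 0.039), as did edgeR without its robust option (adjusted p = 0.008 and 0.013), and the fitted sign turned with a linear time term (-0.37 and -0.39).

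Ier5 kept the largest share of its maximum at 16 h among the 6 genes, in both materials. In the input it had 93 counts in untreated cells and 95, 261, 452, 576, 506, 384 and 318 at the later times. In the footprints it had 71 counts in untreated cells and 71, 196, 445, 573, 507, 482 and 394. Both materials were highest at 60 min, with 75 min within counting error of it. The 16 h libraries were above the untreated and the 30 min ones. Ier5 at 60 min stood at 6.54-fold of untreated (5.25 to 8.24) in the input and at 9.22-fold (7.2 to 12) in the footprints. Ier5 rose over 0 to 90 min by a fitted log2 of 3.09 ± 0.37 in the input (edgeR, adjusted p = 0.0055) and 3.79 ± 0.45 in the footprints (adjusted p = 0.008). With a linear time term alone the input change missed the threshold (2.54, adjusted p = 0.079). Footprints at 75 and 90 min against 15 and 30 min did not pass (2.03 ± 0.53, adjusted p = 0.11), but they were called by DESeq2 (adjusted p = 0.014), without the robust option (adjusted p = 0.0071) and without the 15 min (adjusted p = 0.0043) or the 30 min library (adjusted p = 3.9e-05).

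Over the 6 genes, the change over 0 to 90 min was called higher for 4 in the input (Egr1, Egr3, Nr4a1 and Ier5) and for the same 4 in the footprints. Of all genes tested, 27.1% were called in the input in either direction, 15.2% as higher, and 21.8% in the footprints, 12.7% as higher. The median fitted log2 size over the 6 was 5.04 in the input and 6.74 in the footprints, against -0.04 and -0.07 over all tested genes. The footprint sizes of Egr1, Egr3 and Nr4a1 rest on 0, 0 and 1 untreated counts, so that median is no measure of fold. Egr1, Egr2 and Egr3, and Nr4a1 in the footprints, passed the filter only through libraries after LPS. A comparison of their rise with all tested genes is therefore partly set by the filter. For 75 and 90 min against 15 and 30 min, 1 of the 6 was called in each material (Egr3), where 18.2% of all genes were called in the input and 12.6% in the footprints.

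Levels per length set the 6 in order at their own maxima, with footprints taken per coding sequence and input per transcript, the features counted being not given in the sources used here. In the footprints, per kilobase of coding sequence, Ier2 stood at 1140 CPM, Nr4a1 at 133, Ier5 at 96.1, Egr2 at 62.6, Egr3 at 17 and Egr1 at 4.22. In the input, per kilobase of transcript, the order was Ier2 at 180 CPM, Nr4a1 at 64.6, Ier5 at 26.5, Egr2 at 20.9, Egr3 at 2.64 and Egr1 at 0.497. The order was the same in both materials. In untreated cells Ier2 also led, with 32.7 CPM per kilobase of coding sequence in the footprints, followed by Ier5 at 10.4 and Egr2 at 0.577.

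Timing separated Ier2 from the others and split the rest. The mean time of the excess over untreated between 0 and 90 min, weighted by CPM, was 43.6 ± 0.3 min for Ier2 input (counting SE). It was 54.4 ± 0.3 min for Nr4a1, 55.9 ± 2.6 for Egr1, 62.4 ± 0.5 for Egr2, 63.0 ± 0.7 for Ier5 and 64.4 ± 1.3 for Egr3. Neighbours in this order that overlapped within their counting error were Nr4a1 with Egr1, and Egr2, Ier5 and Egr3 with one another. In the footprints the mean times were 43.9 ± 0.2 min for Ier2, 54.5 ± 0.2 for Nr4a1, 56.2 ± 1.7 for Egr1, 65.7 ± 0.5 for Egr2, 65.7 ± 0.6 for Ier5 and 66.3 ± 0.8 for Egr3. Thus 3 courses were seen: Ier2 early, Nr4a1 and Egr1 in the middle, and Egr2, Egr3 and Ier5 late. These spreads are counting errors of single libraries and hold no variation between cultures.

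**Figure D2:**
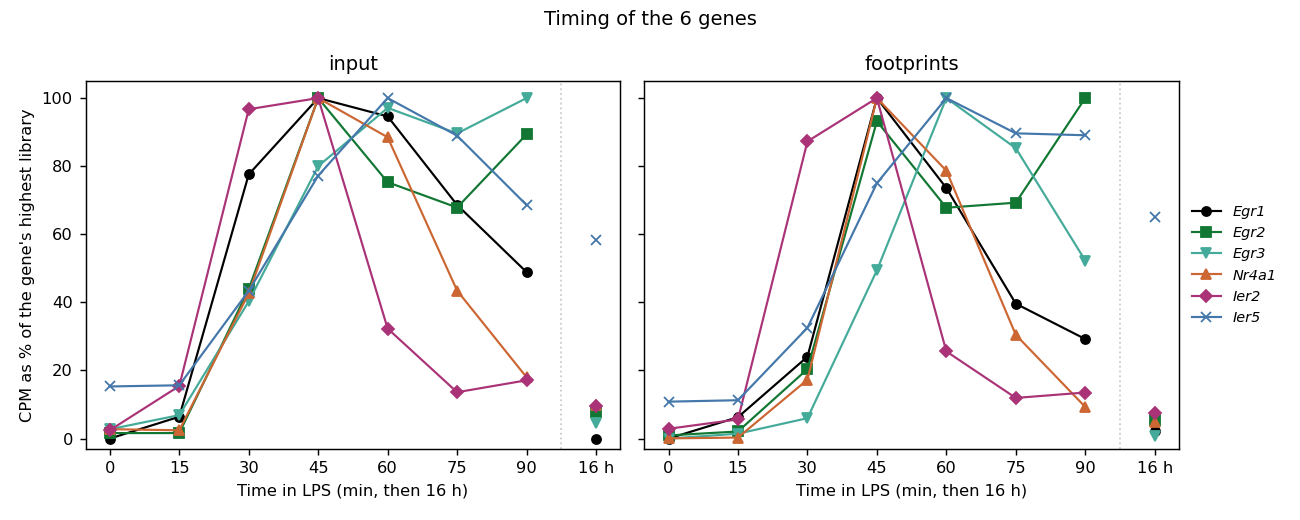
CPM of each gene as a percentage of its own highest library against time in LPS, input on the left and footprints on the right, 1 library per point, with the 16 h library set apart. Ier2 input is at 96.7% of its maximum at 30 min and at 32.2% at 60 min, when Egr3 input is at 97.1% and Ier5 at its maximum.

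At 16 h Ier5 was the member called higher in both materials, while Egr2, Ier2 and Nr4a1 were also above untreated beyond counting error in both. Ier5 at 16 h stood at 3.83-fold of untreated (3.03 to 4.88) in the input and at 6.01-fold (4.66 to 7.85) in the footprints. The test at 16 h sets that library against the fitted value at 0 min, not against the untreated library, so its sizes differ from such folds. By this test Ier5 was called higher in the input (log2 2.48 ± 0.43, edgeR, adjusted p = 0.0041) and in the footprints (3.19 ± 0.5, adjusted p = 0.0041). Nr4a1 was called higher in the footprints (fitted log2 7.13 ± 1.7 on 1 untreated count, adjusted p = 0.028), where 81 counts stood against 1. Nr4a1 input at 16 h, at 3.57-fold of untreated (2.38 to 5.49), did not pass (3.28 ± 1.4, adjusted p = 0.11). So 1 of the 6 was called in the input and 2 in the footprints, where 55.3% and 50.6% of all genes were called. Egr2 at 16 h stood at 4.8-fold (2.07 to 12.9) in the input and 5.96-fold (2.47 to 17.4) in the footprints, and Ier2 at 3.93-fold (2.83 to 5.56) and 2.65-fold (2.2 to 3.21), none of them called by edgeR; DESeq2 called Egr2 footprints (2.99, adjusted p = 0.024). The Nr4a1 footprint call ended when the untreated, 15 min or 30 min library was left out (adjusted p = 0.09, 0.074 and 0.078) and with the square root of minutes (2.03, adjusted p = 0.71), and its sign turned with a linear time term (-0.47, adjusted p = 0.93). Nr4a1 input was called without the 15 min library (1.92, adjusted p = 0.0023) and without the robust option (adjusted p = 0.0075). The Ier5 calls were lost with a linear term (adjusted p = 0.18 in the input and 0.068 in the footprints), and the input call with the square root of minutes (adjusted p = 0.052).

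Ribosome density, the footprints of a gene divided by its input after scaling, is 1 for the typical gene. It asks whether the number of ribosomes per mRNA moved with the mRNA level. For Nr4a1 the density was 0.0342 in untreated cells (0.000839 to 0.205) and 0.203 (0.0613 to 0.534) at 15 min. It was 0.689 (0.593 to 0.8) at 30 min, 1.69 (1.56 to 1.83) at 45 min and 1.49 (1.37 to 1.63) at 60 min. At 75 and 90 min it stood at 1.17 (1.03 to 1.33) and 0.855 (0.681 to 1.07), and at 16 h at 0.886 (0.653 to 1.2). Density thus climbed up to 45 min, when the mRNA was at its maximum, and was lower again by 90 min by a log2 of -0.98 (-1.33 to -0.64). Nr4a1 density rose over 0 to 90 min by a fitted log2 of 4.71 ± 0.53 (edgeR, adjusted p = 0.00019) and was higher at 16 h (3.80 ± 0.56, adjusted p = 0.0026). The untreated value rests on 1 footprint and 32 input counts. Without the untreated pair the call over 0 to 90 min held, but without the time-point block both calls were lost (adjusted p = 0.85 and 0.7), as with a linear time term (1.00, adjusted p = 0.88, and 0.27, adjusted p = 0.96) and the square root of minutes (2.03, adjusted p = 0.73, and 1.21, adjusted p = 0.83).

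Egr3 was the other gene of the 6 with a called density change. Its density was 0.456 (0.0434 to 2.78) at 15 min on 2 footprint counts, 0.331 (0.131 to 0.741) at 30 min and 1.36 (0.939 to 1.98) at 45 min. It reached 2.26 (1.67 to 3.08) at 60 min and 2.08 (1.5 to 2.89) at 75 min, and stood at 1.14 (0.793 to 1.63) at 90 min. The maximum was later than for Nr4a1 and, as there, preceded a lower value at 90 min. The change over 0 to 90 min was called (edgeR, adjusted p = 0.0095), with a fitted log2 of 7.02 ± 1.3 that rests on 0 untreated footprints. Leaving out the untreated, 30 min or 60 min pair ended the Egr3 call (adjusted p = 0.11, 0.055 and 0.06), with DESeq2 (5.28, adjusted p = 0.18), with a linear term (adjusted p = 0.74) and with the square root of minutes (adjusted p = 0.59).

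The other 4 genes did not pass the density test over 0 to 90 min. Ier5 density was 0.835 (0.604 to 1.15) in untreated cells, 1.16 (1.01 to 1.32) at 45 min, 1.52 (1.32 to 1.74) at 90 min and 1.38 (1.19 to 1.61) at 16 h. Its fitted change of 0.84 ± 0.2 missed the threshold (edgeR, adjusted p = 0.079) and passed it with a linear term (adjusted p = 0.046) or the square root of minutes (adjusted p = 0.042). Egr2 density was 0.937 (0.26 to 3.26) in untreated cells and 2.12 (0.784 to 6.26) at 15 min, both on few counts. It was 0.778 (0.614 to 0.982) at 30 min, 1.55 (1.36 to 1.76) at 45 min and 1.82 (1.59 to 2.09) at 90 min, with a fitted change of 1.43 ± 0.55 (adjusted p = 0.34). Egr2 density at 75 and 90 min against 15 and 30 min differed by 1.04 ± 0.22 (adjusted p = 0.14) and was called with no filter on low counts (adjusted p = 0.029). The difference was 1.04 without the 45 or the 60 min pair and 1.17 without the 15 min pair. Without the 30 min pair, which left 15 min as the early time, its sign turned (-0.26). Egr1 density was 3.42 (0.274 to 179) at 15 min on 3 footprint counts and 1 input count. It was 1.1 (0.439 to 2.72) at 30 min and 3.52 (1.93 to 6.8) at 45 min (fitted 2.15 ± 2, adjusted p = 0.9). Egr3 and Nr4a1, the genes called for density, passed the filter in the footprints only through libraries after LPS. A comparison of their density calls with all genes is therefore partly set by the filter. In all, 2 of the 6 were called for density over 0 to 90 min against 1.28% of all genes, 1 of 6 at 16 h against 0.504%, and 0 of 6 for the late against the early times against 0.0315%. For that last contrast, unadjusted p was under 0.05 for Egr2 (0.00014), Egr3 (0.0013), Ier5 (0.0021) and Nr4a1 (0.0047), and DESeq2 called 0 of the 6.

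Ier2 density was above that of the typical gene, beyond counting error, at every time but 15 min. It was 3.72 (2.67 to 5.27) in untreated cells, 1.16 (0.983 to 1.37) at 15 min, 2.91 (2.76 to 3.08) at 30 min and 3.2 (3.03 to 3.38) at 45 min. At 60, 75 and 90 min and 16 h it stood at 2.52, 2.78, 2.5 and 2.65. Against untreated, log2 density differed by -0.56 (-1.08 to -0.06) at 60 min and by -0.58 (-1.12 to -0.05) at 90 min. At 30, 45 and 75 min and 16 h it was also below untreated, but within counting error. The 15 min density was the lowest: input at 15 min was 6.3-fold of untreated while footprints were 1.95-fold (1.61 to 2.38). The step from untreated to 15 min was picked after the values were seen. Over it the log2 density of Ier2 differed by -1.68 (-2.24 to -1.14). Among 8846 genes with at least 20 counts in all 4 libraries this was the lowest. Jun, which encodes an AP-1 subunit, followed at -1.57 (-2.09 to -1.07). Over the curve from 0 to 90 min the fitted Ier2 density change was 0.56 ± 0.78 (edgeR, adjusted p = 0.96). Its sign is opposite to that of the differences from untreated given above. Ier2 density at 75 and 90 min against 15 and 30 min was 0.34 ± 0.52 (adjusted p = 0.96), and 1.18 (adjusted p = 0.0013) without the 30 min pair, which left 15 min as the early time.

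**Figure D3:**
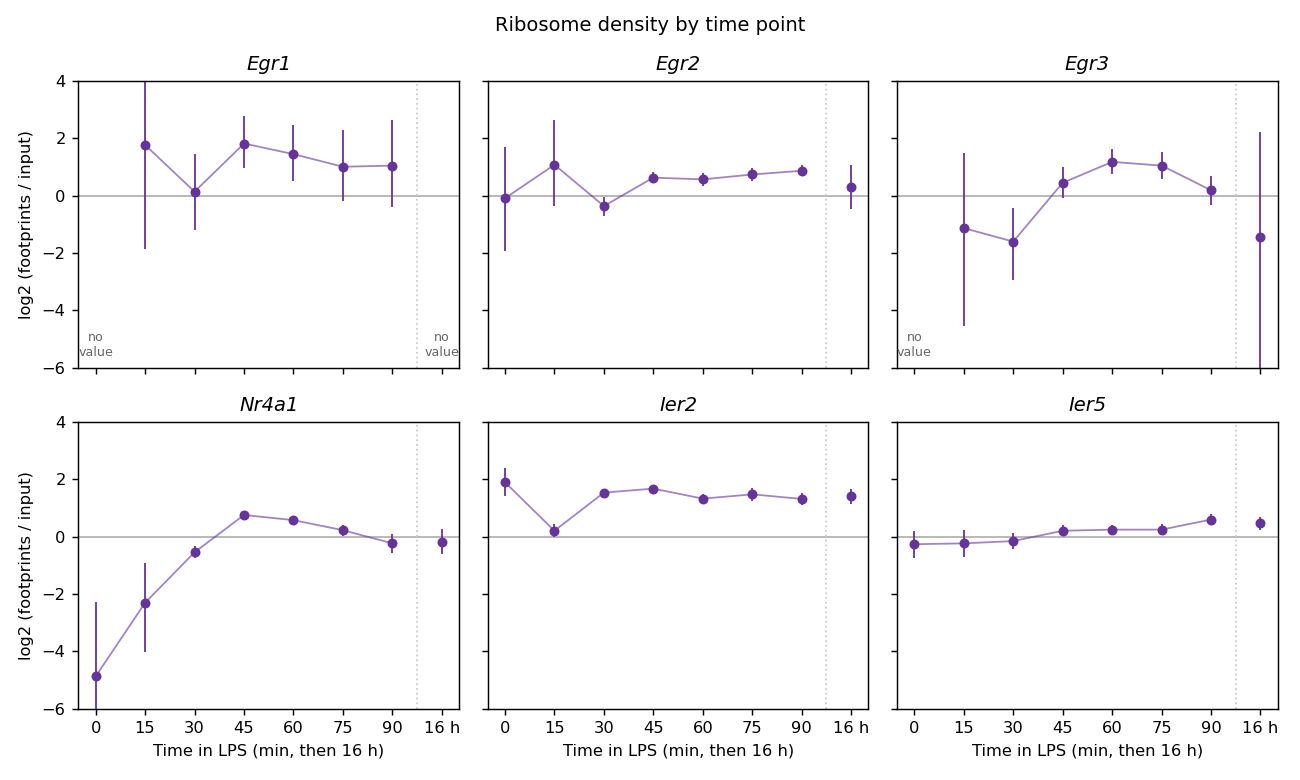
Log2 of footprints over input for each gene against time in LPS, 1 pair of libraries per point, with 95% counting intervals, some of which run beyond the axis; 0 is the typical gene and "no value" marks pairs in which a library had 0 counts. Nr4a1 climbs from -4.87 to 0.76 at 45 min, and Ier2 lies below its other points at 15 min only.

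Between 30 and 45 min all 6 genes had a higher density at the later time, a step picked after the values were seen. The log2 difference was 2.04 (0.73 to 3.49) for Egr3, 1.68 (0.05 to 3.30) for Egr1, 1.29 (1.05 to 1.54) for Nr4a1, 0.99 (0.60 to 1.38) for Egr2, 0.36 (0.02 to 0.70) for Ier5 and 0.14 (0.02 to 0.25) for Ier2. Nr4a1 ranked 9 from the highest and Egr2 58 among 8781 genes with at least 20 counts in the 4 libraries. In that set 48.6% of genes were higher, with a median of -0.01, and 18 of 25 other immediate early genes were higher, with a median of 0.30. The step from untreated to 15 min was picked in the same way. Over it 3 of 20 of those immediate early genes were higher and 17 lower (median -0.20), against 50.7% higher in all genes. The 2 pairs of libraries have no replicates, so a shift of a library cannot be told apart from one of the genes.

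**Figure D4:**
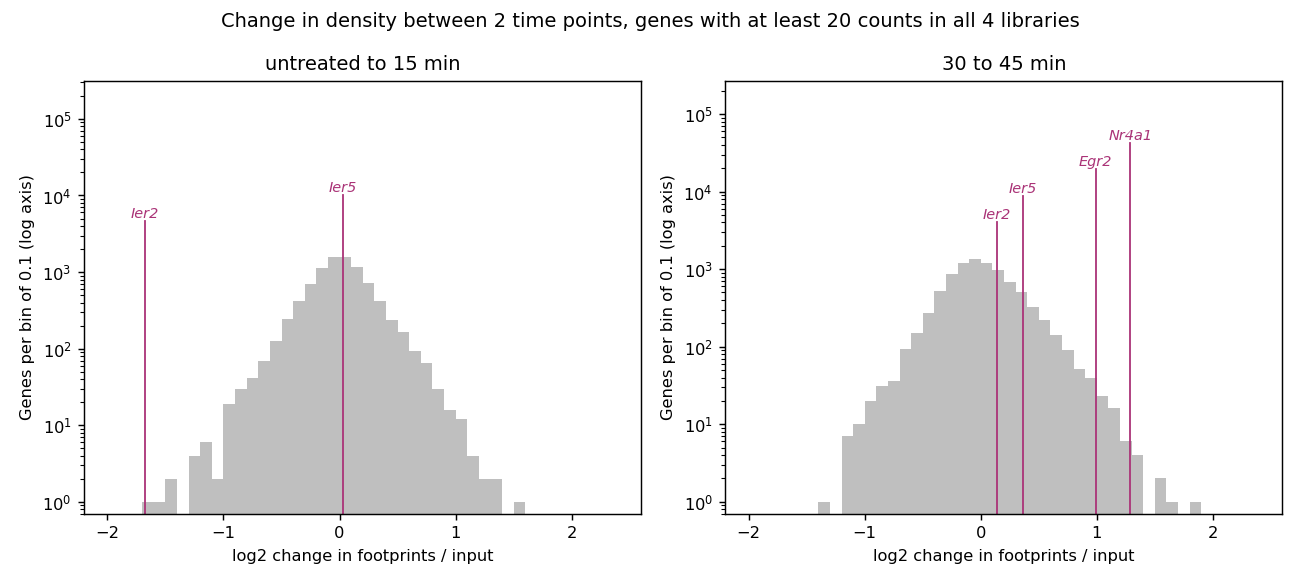
Number of genes per bin of 0.1 in the log2 change of footprints over input (log axis) from untreated to 15 min and from 30 to 45 min, over genes with at least 20 counts in the 4 libraries; named lines mark the genes of the 6 that met this minimum, and their heights only separate the names. Ier2 lies at -1.68 in the first panel, and Egr2 and Nr4a1 at 0.99 and 1.29 in the second. Both steps were picked after the values were seen.

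The mean density over all 8 time points asks how many footprints an mRNA carries per input read relative to the typical gene. It was higher than typical for Ier2 (log2 1.36 ± 0.16, edgeR, adjusted p = 5.9e-05), Egr1 (1.25 ± 0.23, adjusted p = 4.8e-05), Egr2 (0.55 ± 0.12, adjusted p = 0.00051) and Ier5 (0.22 ± 0.079, adjusted p = 0.015). Egr3 stood at 0.52 ± 0.25 (adjusted p = 0.07) and Nr4a1 at 0.14 ± 0.25 (adjusted p = 0.63). These 4 of 6 compare with 85% of all genes called in either direction and 43.6% as higher, so most genes differ from the typical one by this test. The ratio is not set per length. Without the time-point block 0 of the 6 were called. The Ier5 value was -0.01 (adjusted p = 0.89) with scaling by total counts and was also lost with DESeq2 (adjusted p = 0.068) and without the 90 min pair (0.15, adjusted p = 0.067). Egr3 was called without the robust option (adjusted p = 0.034) and without the untreated (0.62, adjusted p = 0.04) or the 30 min pair (0.68, adjusted p = 0.0018).

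Of 7 relatives and corepressors listed, 6 were in the table and 3 passed the filter, Nab1, Nab2 and Ier3. Nr4a2 and Nr4a3, the other NR4A receptors, had at most 20 and 5 input counts in any library, and Ier5l at most 1, next to 1110 for Nr4a1 and 576 for Ier5. Ier3, an immediate early gene linked to cell survival, had 90 input counts in untreated cells and 213, 890, 1593, 936, 764, 778 and 1364 later. At 16 h its input was above the fitted value at 0 min by a log2 of 4.08 ± 0.79 (edgeR, adjusted p = 0.013). That call was lost with a linear term (adjusted p = 0.22), the square root of minutes (adjusted p = 0.075) and without the untreated library (adjusted p = 0.12). Nab1 rose over 0 to 90 min by 0.74 ± 0.093 in the input (adjusted p = 9.4e-05) and 0.99 ± 0.17 in the footprints (adjusted p = 0.00036), and both calls were lost with the square root of minutes (adjusted p = 0.051 and 0.14). Nab2 rose by 0.56 ± 0.16 in the input (adjusted p = 0.036) and did not pass in the footprints (-0.08 ± 0.21, adjusted p = 0.89). The Nab2 input call was lost under total counts (0.43, adjusted p = 0.099), DESeq2 (adjusted p = 0.3), a cubic curve (adjusted p = 0.067), the square root of minutes (adjusted p = 0.086) and without any 1 of the untreated, 15, 45, 60, 75 or 90 min libraries (adjusted p = 0.05 to 0.26).

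Among 32 tested genes of the list of other immediate early genes, 21 rose and 4 fell over 0 to 90 min in the input (median log2 4.55). In the footprints 20 rose and 4 fell (median 4.83). Of all genes tested, 27.1% were called in the input, 15.2% as higher, and 21.8% in the footprints, 12.7% as higher. Some listed genes, Myc, Plk2, Fosb and Phlda1 among them, passed the count filter only through libraries after LPS, in both materials. Others, such as Jun and Junb, reached its minimum count in untreated cells too. The comparison of rises in the list with all tested genes is therefore partly set by the filter. The largest fitted input sizes were those of Myc, a growth-promoting transcription factor (8.20 ± 0.57, edgeR, adjusted p = 3.6e-06), Plk2, a polo-like kinase (7.19 ± 0.48, adjusted p = 8.3e-07), and Trib1, a pseudokinase (6.03 ± 0.93, adjusted p = 0.016). Their input counts were 4, 3 and 11 in untreated cells and 251, 123 and 153 at 90 min. These sizes come from the fitted curve, depend on few untreated reads and are no measure of fold. Trib1 lost its call without the 30 min (adjusted p = 0.072) or the 75 min library (adjusted p = 0.064). In the footprints Myc (12.34 ± 0.95, adjusted p = 0.0012), the AP-1 subunit Fosb (7.96 ± 1.1, adjusted p = 0.0062) and Phlda1 (7.60 ± 0.44, adjusted p = 1.3e-06) had the largest sizes. Their untreated footprint counts were 2, 0 and 4, so the fitted sizes depend on few reads. Fosb lost its call with a linear term (adjusted p = 0.54) and the square root of minutes (adjusted p = 0.35). By edgeR and by DESeq2 the list had 0 density calls over 0 to 90 min and at 16 h, with unadjusted edgeR p under 0.05 for 5 and 1 of the 32. Between the late and the early times 1 gene of the list was called for density, the antiproliferative gene Btg2 (0.82 ± 0.15, adjusted p = 0.046), a call lost with total counts (adjusted p = 0.12), DESeq2 (adjusted p = 0.9), no time-point block (adjusted p = 1) and without the 30, 75 or 90 min pair (adjusted p = 0.22, 0.58 and 0.3). DESeq2 called 31 of the 32 in the input and all 32 in the footprints over 0 to 90 min. A linear term left 15 and 15, and the square root of minutes 13 and 11. Over all genes the square root of minutes called 1406 and 821, against 2579 and 2077 as reported.

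The next list holds SRF, its cofactors and ERK kinases, the machinery that acts on CArG boxes. Of 11 genes, all tested, 2 rose and 2 fell over 0 to 90 min in the input (median log2 -0.07), and 1 rose and 1 fell in the footprints (median -0.15), next to 27.1% and 21.8% of all genes called in either direction. Srf, itself a known target of SRF, rose by 1.80 ± 0.18 in the input (edgeR, adjusted p = 0.00017) and 1.92 ± 0.23 in the footprints (adjusted p = 6.9e-05). Mkl1, an actin-regulated cofactor of SRF, fell by 1.07 on the log2 scale in the input (adjusted p = 0.00017) and by 1.13 in the footprints (adjusted p = 9.7e-05). Elk4 rose by 0.51 ± 0.13 in the input (adjusted p = 0.025), which was lost with total counts (0.41, adjusted p = 0.075), with DESeq2 (adjusted p = 0.2) and on leaving out the untreated, 15 min or 90 min one (adjusted p = 0.27, 0.076 and 0.06). The Mkl1 calls were lost with a linear time term (adjusted p = 0.11 and 0.064) and the square root of minutes (adjusted p = 0.36 and 0.29), and scaling by total counts gave 1 higher and 5 lower in the footprints. For density over 0 to 90 min 0 genes of the list were called by edgeR or DESeq2, with an unadjusted edgeR p under 0.05 for 1.

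The genes most like each of the 6 were found by Pearson's correlation of log2 CPM over the 8 libraries of a material, given as a description of courses that share their libraries. Ier2 was most like Fos, the AP-1 subunit, in the input (r = 0.967) and in the footprints (r = 0.979), and Jun was among its 3 closest in both (0.949 and 0.959), with Fam126b in the input (0.962) and Gyg in the footprints (0.964). Fos input counts were 27 in untreated cells and 156, 756, 1082, 257, 95, 65 and 75 later, the same early peak. Egr1 input was closest to Fosb (0.994), Fryl (0.988) and Zfp36l1 (0.979), and Egr1 footprints to AC152939.2 (0.975), Zfp36l1 (0.967) and Taf7 (0.963). Egr3 was closest to Tnfsf9, a ligand of the TNF family, in both materials (0.992 and 0.983), followed by Zranb1 (0.976) and Ppp3ca (0.975) in the input and Orc1 (0.981) and Tpm3-rs7 (0.976) in the footprints. Egr2 input was closest to Aebp2 (0.990), Cd83 (0.982) and Tnfaip3 (0.982), and its footprints to Tnfsf9 (0.986), Ehbp1 (0.980) and Gpr84 (0.977). Nr4a1 input was closest to Herc2 (0.990), Gem (0.989) and Ppp1r10 (0.983), and its footprints to Nfkbiz (0.983), Junb (0.982) and Cited2 (0.980). Ier5 input was closest to the small MAF factor Maff (0.996), Ifrd1 (0.982) and the histone gene H3f3b (0.982), and its footprints to Jund (0.995), H3f3b (0.986) and Osm (0.984). Within the 6, the courses of Egr1 and Egr3 (0.96 in the input) and of Egr2 and Egr3 (0.95) were the most alike, and those of Ier2 and Ier5 (0.50) the least.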

How the data were processed

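Input RNA and ribosome footprints of RAW264.7 cells were measured at 8 time points, 1 library each. Whole-number read counts per gene were used as deposited by the authors; the submitters' processing notes name Bowtie 0.12.8, DESeq2 1.18.1 and mm10. The counting rules (features, strand, multiple matches, duplicates) and the step behind the equal totals, not given in the sources used here, leave the original depth unknown. The deposited normalised signal, the same counts divided by 1 factor per library per the file headers, was used for a check only. Samples were grouped by the labels.

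The 9529 genes reaching 10 counts in 4 or more of the 8 libraries of each material were fitted with edgeR 4.0.16 (R 4.3.3; quasi-likelihood with the robust option; TMM within each material, and over all 16 libraries for density). Every adjusted p comes from edgeR unless DESeq2 (1.42.0) is named. The input and footprint models had linear and quadratic minutes and a 16 h term. For 0 to 90 min the size given is the largest excursion of the curve at a sampled time, with the SE at that time. The 16 h term, in the density models too, was tested against the fitted value at 0 min. Another model compared 75 and 90 min with 15 and 30 min, with neighbouring time points in place of replicates, so that change between them counts as error. Density models held the time point as a block, because its input and footprints shared a lysate. Counting intervals (95%, exact conditional binomial or odds ratio, scipy 1.17.1) and the floor of 3 counts cover counting error only. The fits were run on simulated data with linear or quadratic curves, the form of the fitted model. That run cannot show how the fits fare on sharper courses. Likeness used log2 CPM with a prior count of 0.5. Figures were drawn with matplotlib 3.10.9.

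The 6 genes, the 3 lists and the alternatives were chosen with earlier results of these data known. Listed genes are named where they passed the test and were among the 3 largest of their list, and the 3 genes most like each of the 6 are named. Alternatives were total counts, DESeq2 size factors, looser or no filters, DESeq2, other time curves, no block, each time point left out and, added after seeing the data, edgeR without the robust option.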

Additional observations from a re-analysis of the deposited data

How the results depend on the processing

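Each of the 6 genes was refitted under each alternative that could be fitted in each comparison, giving 954 values: 834 kept their direction and their side of the threshold, 50 lost a call, 33 gained one and 37 turned sign. Of those 37 values, 2 belonged to a called result, Nr4a1 footprints at 16 h with a linear term (-0.47) and the Ier5 mean density with total counts (-0.01). The other 35 were called neither as reported nor under the alternative. With a linear term the signs over 0 to 90 min turned for Ier2 in the input (-0.37) and footprints (-0.39). At 16 h they turned in the input for Egr2 (-0.73), Egr3 (-1.62), Nr4a1 (-0.73) and Ier2 (-2.23), in the footprints for Egr1 (-2.82), Egr2 (-0.38), Egr3 (-2.67) and Ier2 (-2.40), and in density for Egr3 (-0.94). With the square root of minutes they turned at 16 h for Egr3 (-0.06) and Ier2 (-0.77) in the input and for Egr1 (-1.50), Egr3 (-0.03) and Ier2 (-0.44) in the footprints; a cubic curve gave 1.00 for Egr1 input, against -2.12. The mean density turned for Nr4a1 with total counts (-0.12) and DESeq2 (-0.51) and for Egr3 with DESeq2 (-0.03). The number of the 6 called over 0 to 90 min was 4 in the input and 4 in the footprints; it was 6 and 6 with DESeq2 and without the robust option, 1 and 1 with a linear term, and 2 and 1 with the square root of minutes. At 16 h it was 1 in the input and 2 in the footprints, 0 and 0 with a linear term, and 0 and 1 with the square root of minutes; without the robust option 2 were called in the input, and with DESeq2 3 in the footprints. For 75 and 90 min against 15 and 30 min it was 1 in each material, 2 in the input and 3 in the footprints without the robust option, and 2 in the footprints with DESeq2; no filter gave 1 for density, where the reported count was 0. For density over 0 to 90 min the reported 2 became 1 with DESeq2, which kept Nr4a1. With a linear term or the square root of minutes both reported calls were lost, and the 1 gene called was Ier5. The reported 1 at 16 h became 0 with either curve.

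The replicate block of the density models is the time point, since input and footprints of a time point share a lysate. With no replicate block 1 of the 6 was called over 0 to 90 min, 0 at 16 h and 0 for the mean density level, against 2, 1 and 4 with it, and the late against early density of Ier2 turned sign (-0.02). Leaving out 1 time point at a time gave 2 to 4 calls in the input and 3 to 5 in the footprints over 0 to 90 min. At 16 h it gave 1 to 2 in the input and 1 to 2 in the footprints. For the late against the early times it gave 0 to 3 in the input, 1 to 3 in the footprints and 0 to 1 for density. For density over 0 to 90 min it gave 1 to 2. Leaving out a time point also turned signs of values that were not called. At 16 h Ier2 input ran from -0.06 to 2.04, Egr3 input from -0.01 to 1.25, Ier2 density from -0.44 to 1.59 and Egr2 density from -0.30 to 1.34. For the late against the early times Egr1 input ran from -0.40 to 3.03, Nr4a1 input from -0.47 to 3.65, Ier2 footprints from -2.77 to 1.18, and the density of Ier2 from -0.15 to 1.18, of Egr1 from -0.63 to 0.88 and of Egr2 from -0.26 to 1.17. Density over 0 to 90 min ran from -0.50 to 2.03 for Ier2 and from -0.94 to 3.95 for Egr1, and the Nr4a1 mean density from -0.05 to 0.27.

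Single libraries and counts of 0 or 1 in untreated cells for Egr1, Egr3 and Nr4a1 footprints limit every fold given for them, and equal deposited totals leave sequencing depth unknown.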
